A study of Drosophila melanogaster with 4 samples.

Results

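HP1a clusters in the proximal 2 Mb of the X and 3R arm sequences were described, a cluster being a region that the authors deposited as enriched for HP1a. A cluster belonged to the set when its midpoint lay within 2 Mb of the end of the arm sequence that faces the centromere, which is the high-coordinate end of X (20422828 to 22422827) and the low-coordinate end of 3R (1 to 2000000) on FlyBase r5. The rule used position alone and no measured value. Of the 5583 enriched clusters of the authors' combined set, 221 met it, 134 on X and 87 on 3R. Of the replicate lists, 123 of 3564 clusters in replicate 1 and 143 of 4467 in replicate 2 lay in the same spans. The chromatin came from sieved heads of wild-type Oregon-R flies, labelled as mixed adults and kept in population cages, and was precipitated with the wa191 antibody against HP1a. The series has 2 ChIP libraries, each with its own input (2 input libraries). No genotype, treatment or tissue was varied, so the comparisons are between the arms, between distances and between the replicates. Heads hold neurons, glia, fat body and other cells together, so a cluster seen in a part of these cells and a weaker one seen in all of them cannot be told apart.

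HP1a is the chromodomain protein that binds methylated lysine 9 of histone H3 and marks the heterochromatin around Drosophila centromeres. Along an arm, euchromatin gives way to pericentric heterochromatin towards the centromere, and the point where an assembled sequence stops differs between arms. The base of the X is also known for flamenco, a locus of transposon remnants from which piRNAs are made. Its position on r5 was not looked up here, and no gene is assigned to a cluster, because no annotation on r5 was used.

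The score of a cluster is the authors' own value, on a scale not given in the sources used here. Its levels are described and ranked within a list, and between the replicates only their rank correlation is given. Depth per library is unknown, since the lists give no counts. Sequence without a cluster may lack HP1a, may not be mappable or may have had few reads, and these cannot be told apart.

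On proximal X, most bases in HP1a clusters of the replicates lay in a stretch that began about 0.5 Mb from the end of the sequence, while on proximal 3R clusters were scattered, with a dense patch at the very end. Clusters covered 14.2% of the proximal 2 Mb of X in replicate 1 and 16.5% in replicate 2, with a mean of 15.4% ± 1.61 (SD, n = 2). On 3R they covered 8.58% and 8.62%, a mean of 8.60% ± 0.0333 (SD, n = 2). X was therefore covered more than 3R in both replicates, by 1.66 and 1.91 times, a mean of 1.78 ± 0.180 (SD, n = 2). The replicates' values for the arms did not overlap. A higher value of X was not particular to the proximal spans. In the rest of the arms, clusters took up 7.23% of X against 2.45% of 3R (replicate 1). For replicate 2 the shares there were 10.5% of X against 3.07% of 3R. X thus exceeded 3R by a larger factor outside the proximal spans than inside them, in both replicates. No difference between arms or distances given here was tested, since the 2 arms were read in the same 2 libraries and an exact paired permutation over 2 replicates cannot give a p below 0.5.

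The higher value of X over the proximal 2 Mb depended on 1 interval. Between 500 and 1000 kb from the end, 40.1% of X was covered in replicate 1 and 43.1% in replicate 2, against 7.35% and 6.64% of 3R. Without this interval, a choice made after seeing the data, X was covered to 5.57% and 7.62% and 3R to 8.99% and 9.28%, and the ratio of X to 3R was 0.62 and 0.82. X then lay below 3R in both replicates. The interval held the peak of X but not that of 3R, so leaving it out was bound to lower X and raise 3R. The peak of 3R was kept. In the second 1 Mb alone, X was also the lower arm, at 4.85% and 6.08% against 6.77% and 7.14%.

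**Figure D1:**
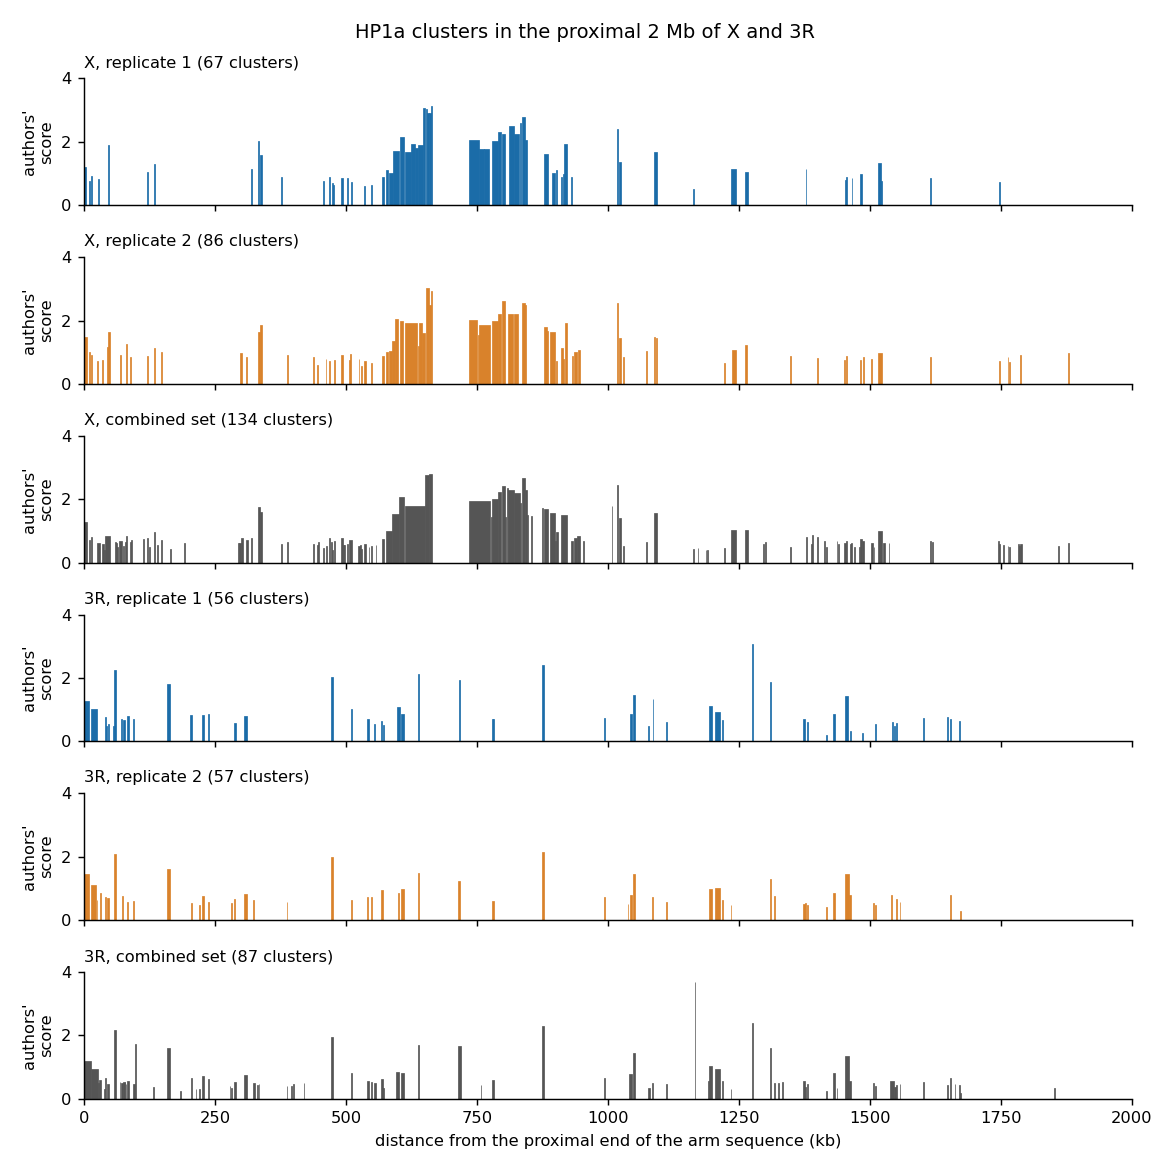
Clusters in the proximal 2 Mb of X (upper 3 panels) and 3R (lower 3 panels) in replicate 1, replicate 2 and the combined set. The horizontal axis is the distance from the proximal end of the arm sequence in kb, each bar spans 1 cluster, and its height is the authors' score. The longest and highest-scored X clusters lie mostly between 500 and 1000 kb in all 3 lists, with an empty stretch of 71.4 kb inside, while the 3R clusters are spread along the span.

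In bins of 100 kb, the profile of X had its main peak between 500 and 900 kb, with lower values on both sides. The first bin, at the end of the sequence, had 11.1% of its bases in clusters in replicate 1 and 22.3% in replicate 2. The bin at 200 to 300 kb had no cluster base in replicate 1 and 1.93% in replicate 2. Coverage was 31.7% and 38.9% at 500 to 600 kb, 53.3% and 53.4% at 600 to 700 kb, and reached its highest value, 57.3% and 58.5%, at 700 to 800 kb (21622828 to 21722827). It was 43.6% and 44.7% at 800 to 900 kb and fell to 14.8% and 20.1% in the next bin. From 1000 kb outwards no bin reached 20% in either replicate, and the outermost bin had no cluster in either. X thus had 4 bins at or above 20% in both replicates, and the bins at 600 to 800 kb were the ones above 50%. The largest difference between the replicates in any X bin was 11.2 percentage points, in the bin at the very end.

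The profile of 3R was highest at the end of the sequence and low beyond it. The first 100 kb had 40.2% of its bases in clusters in replicate 1 and 36.5% in replicate 2, and no other bin reached 20%. It held 23.5% and 21.1% of the covered bases of the whole 2 Mb. The next bin was covered to 4.06% and 5.00%. Between 1000 and 1500 kb coverage rose again, to 10.6% and 11.6%, with 15.2% and 16.2% at 1400 to 1500 kb. The 3 outermost bins, from 1700 to 2000 kb, had no cluster base in either replicate. The replicates differed by at most 3.78 percentage points in any 3R bin.

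**Figure D2:**
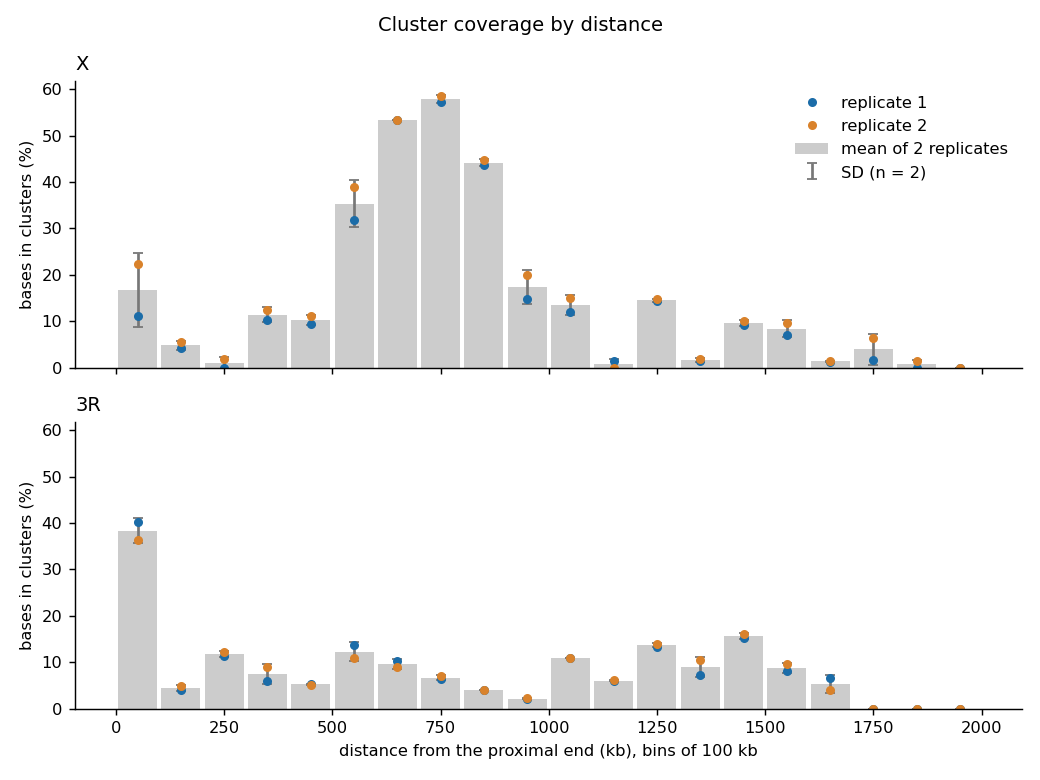
Share of bases inside clusters in bins of 100 kb against the distance from the proximal end, for X (upper panel) and 3R (lower panel). Grey bars are the mean of the 2 replicates, whiskers the SD (n = 2), and points the single replicates. X peaks at 57.9% at 700 to 800 kb, and 3R peaks at 38.3% in the first 100 kb.

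Seen along the whole arm, the proximal 2 Mb was the most covered window on both arms, in both replicates. X divides into 11 such windows and 3R into 13. On X, the proximal window at 14.2% and 16.5% stood not far above the most covered of the other windows, at 10.0% in replicate 1 and 14.9% in replicate 2. The median of the other X windows was 7.39% and 11.1%. Without 500 to 1000 kb, a choice made after seeing the data, proximal X was covered to 5.57% and 7.62%. Both values lay below the coverage of the rest of X, 7.23% and 10.5%. The top rank of the proximal window on X thus depended on that interval. The interval was picked as dense and the rest of X was left whole, so a fall of proximal X was set by the choice. On 3R, the proximal window at 8.58% and 8.62% stood above a highest other value of 3.71% and 4.82%, and above a median of 2.29% and 3.03%. Clusters were also more frequent than in the rest of the arm. There were 33.5 and 43.0 clusters per Mb on proximal X against 24.8 and 36.8 beyond, and 28.0 and 28.5 on proximal 3R against 10.2 and 13.2. On X this too depended on 500 to 1000 kb. That interval held 36 of the 67 proximal X clusters in replicate 1 and 39 of the 86 in replicate 2. Both spans were thinly covered beside the same spans of the other arms, whose coverage was 45.9% and 43.0% on 2L, 68.9% and 66.1% on 3L, and 72.6% and 70.0% on 2R.

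**Figure D3:**
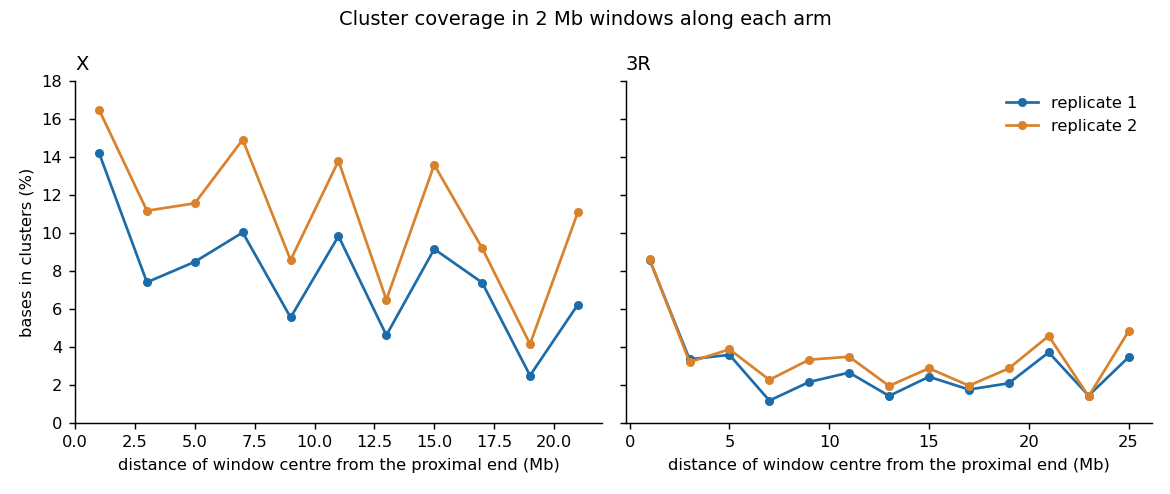
Share of bases inside clusters in windows of 2 Mb along X (left) and 3R (right), by the distance of the window centre from the proximal end in Mb, 1 line per replicate. The first window is the highest of each line, at 14.2% and 16.5% on X and 8.58% and 8.62% on 3R.

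Clusters were short on both arms, with a tail of long ones on X. In replicate 1 the median length was 2560 bp on proximal X and 2274 bp on 3R, and in replicate 2 it was 2495 bp and 2247 bp. The upper quartile on X was 5694 bp and 4269 bp, against 3704 bp and 3784 bp on 3R. X held 6 clusters of 10 kb or longer in replicate 1 and 4 in replicate 2, and 3R held 1 in each. The longest was 17.7 kb in replicate 1 (21669517 to 21687242) and 23.9 kb in replicate 2 (21786740 to 21810651) on X. On 3R the longest was 11.5 kb in replicate 1 (13737 to 25208) and 10.1 kb in replicate 2 (1203607 to 1213726). Each of these 4 clusters was covered to between 87.7% and 99.5% by clusters of the other replicate.

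Scores were higher on X than on 3R within each list. The median was 1.14 on X and 0.73 on 3R in replicate 1, and 1.01 and 0.73 in replicate 2. In the rest of the same arms it was 0.86 on X and 0.69 on 3R in replicate 1, and 0.84 and 0.67 in replicate 2. On X the scores were highest in the dense interval. The median was 1.84 in replicate 1 and 1.63 in replicate 2 between 500 and 1000 kb, and 0.92 and 0.91 in the first 500 kb. Longer clusters scored higher on both arms, with Spearman's rho of 0.55 over 67 clusters and 0.69 over 86 on X, and of 0.57 over 56 and 0.81 over 57 on 3R. These are descriptions across regions of 1 library each, and neighbouring clusters are not independent.

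The longest combined-set clusters of X formed 2 runs inside the dense interval, a run being a chain of clusters under 5 kb apart, a limit chosen after seeing the data. The first run reached from 21575440 to 21687404, 112.0 kb with 13 clusters, and 79.3% of its bases were covered in replicate 1 and 78.6% in replicate 2. By the same limit neither replicate held it as 1 run. Its longest piece was 38.0 kb in replicate 1 and 68.5 kb in replicate 2. Its clusters at 21575440, 21613988 and 21617028 had no base in either replicate. The first run ended in the longest cluster of either arm, 39.8 kb from 21647566 to 21687404 with a score of 1.95. In each replicate 3 clusters covered 94.8% and 99.0% of that cluster. The second run, nearer the end of the sequence, reached from 21758852 to 21853804, 95.0 kb with 7 clusters, covered to 81.9% and 82.9%. It held the second longest cluster, 39.4 kb from 21771752 to 21811116 with a score of 1.80, which replicate 1 split into 5 clusters and replicate 2 into 4. Between the runs lay 71.4 kb, from 21687405 to 21758851, in which neither replicate nor the combined set had any cluster base. Both runs thus end against the same empty stretch.

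The remaining 6 of the 8 longest X clusters also lay 582 to 917 kb from the end, 5 of them inside these runs. They were 13.1 kb at 21821694 to 21834816 (score 1.53), 11.6 kb at 21835076 to 21846684 (score 1.00), 11.4 kb at 21500350 to 21511766 (score 1.50), 11.0 kb at 21591492 to 21602520 (score 2.19), 10.8 kb at 21632766 to 21643568 (score 2.01) and 10.6 kb at 21602972 to 21613608 (score 2.29). At least 70.9% of each of these 6 lay inside clusters of each replicate. Of the 23 combined-set clusters of 5 kb or longer on X, 17 had their midpoint between 500 and 1000 kb. These 23 clusters made up 52.3% of the clustered bases of proximal X.

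The highest scores of X stood at the edge of the empty stretch. The first was 2.80, for the 5181 bp cluster at 21758852 to 21764032, which borders that stretch. The second was 2.75, for its neighbour at 21765172 to 21771608. Each replicate also gave its highest X scores there: 3.14 at 21758872 to 21760872 in replicate 1, and 3.02 at 21765312 to 21770517 in replicate 2. Neither value was unique to its cluster. Exactly the same score was given to 7 clusters of the replicate 1 list and to 2 of the replicate 2 list. The other high-scored regions were 21581750 to 21587722 (score 2.68), 21403032 to 21405670 (score 2.46, the same in 5 combined-set clusters) and 21618776 to 21626008 (score 2.41). The region at 21403032 lay 1018 kb from the end, outside the dense interval, and was only 2639 bp long, yet replicate 1 covered 97.0% of it and replicate 2 covered 96.7%.

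At the end of the X sequence itself, the replicates covered less than in the dense interval. The cluster nearest the end, 22418288 to 22422827, ran past the end of the sequence in the combined set and in replicate 2 and was clipped there. It was 4540 bp long, scored 1.28, and replicate 1 covered 80.2% of it and replicate 2 covered 100%. The next, 22411264 to 22413772, scored 0.71 and was covered to 65.4% and 100%. A chain of 9 combined-set clusters at 22332376 to 22364180, 31.8 kb long, had no cluster base in replicate 1 and was covered to 15.0% in replicate 2. The high coverage of the combined set in this first 100 kb, 46.5%, is thus not matched by the replicates.

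On 3R the 2 longest clusters were also the 2 nearest the end. They were 12.5 kb at 4 to 12542 (score 1.19) and 12.2 kb at 13520 to 25762 (score 0.95). Replicate 1 covered 78.5% of the first and replicate 2 covered 79.0%, and the shares of the second were 93.7% and 83.6%. With the next 2 clusters they formed a run of 32.0 kb that was covered to 66.6% and 70.3%. The third longest lay far from the end, 10.2 kb at 1203578 to 1213784 (score 0.93), covered to 91.5% and 99.1%. The others were 7.21 kb at 1452308 to 1459520 (score 1.34), 6.78 kb at 1539416 to 1546192 (score 0.58), 6.25 kb at 304316 to 310568 (score 0.76), 5.82 kb at 596150 to 601972 (score 0.84) and 5.69 kb at 605248 to 610936 (score 0.82). Among these 5, the one at 1539416 had 49.6% of its bases in clusters of replicate 1 and 54.8% in those of replicate 2, and at least 57.6% of each of the rest lay inside clusters of each replicate.

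The highest-scored clusters of 3R were not the longest ones. Those that both replicates held were 4175 bp at 873382 to 877556 (score 2.28), 2675 bp at 57106 to 59780 (score 2.16) and 5453 bp at 470444 to 475896 (score 1.94). At least 94.6% of each lay inside clusters of each replicate, and the next cluster outwards was at least 7979 bp away. The cluster at 873382 was followed by 115 kb without a cluster in any list. The top 2 scores of 3R were of another kind. A 1001 bp cluster at 1165476 to 1166476 scored 3.68 with no cluster base in either replicate. A 1989 bp cluster at 1274962 to 1276950 scored 2.37 and was covered to 66.0% in replicate 1 and not at all in replicate 2.

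**Figure D4:**
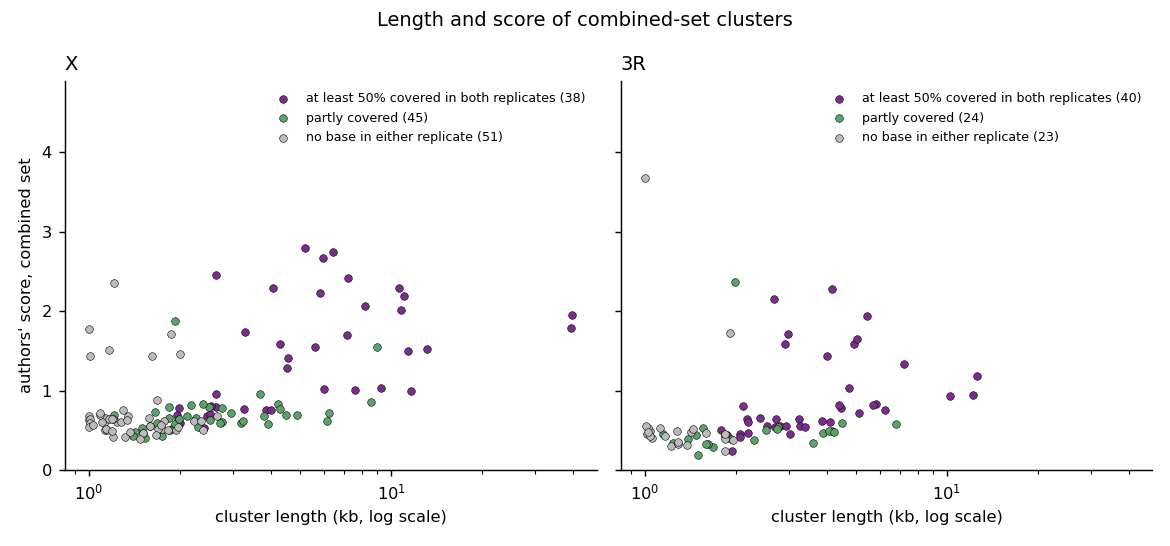
Length (kb, log scale) and authors' score of each combined-set cluster in the proximal 2 Mb of X (left, 134 clusters) and 3R (right, 87 clusters), 1 point per cluster. Colour gives how the replicates cover it: to at least 50% in both, in part, or not at all. Most grey points, with no base in either replicate, lie under 2 kb and under a score of 1; the point at a score of 3.68 on 3R is the 1001 bp cluster described in the text.

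Over the whole 2 Mb, clusters followed each other more closely on X than on 3R. The median gap between neighbours on X was 5881 bp (replicate 1) and 6056 bp (replicate 2), with a mean of 5969 ± 124 bp (SD, n = 2), and 15236 bp and 14221 bp on 3R, a mean of 14728 ± 718 bp (SD, n = 2). Gaps under 1000 bp numbered 18 of 66 on X in replicate 1 and 18 of 85 in replicate 2, against 3 of 55 and 1 of 56 on 3R. Gaps of 50 kb or longer numbered 12 of 66 on X and 10 of 55 on 3R in replicate 1, where the arms were alike. In replicate 2 they numbered 10 of 85 on X and 11 of 56 on 3R, a lower share on X. In the rest of the arms the median gap was 12635 bp and 7483 bp on X and 39115 bp and 24836 bp on 3R.

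**Figure D5:**
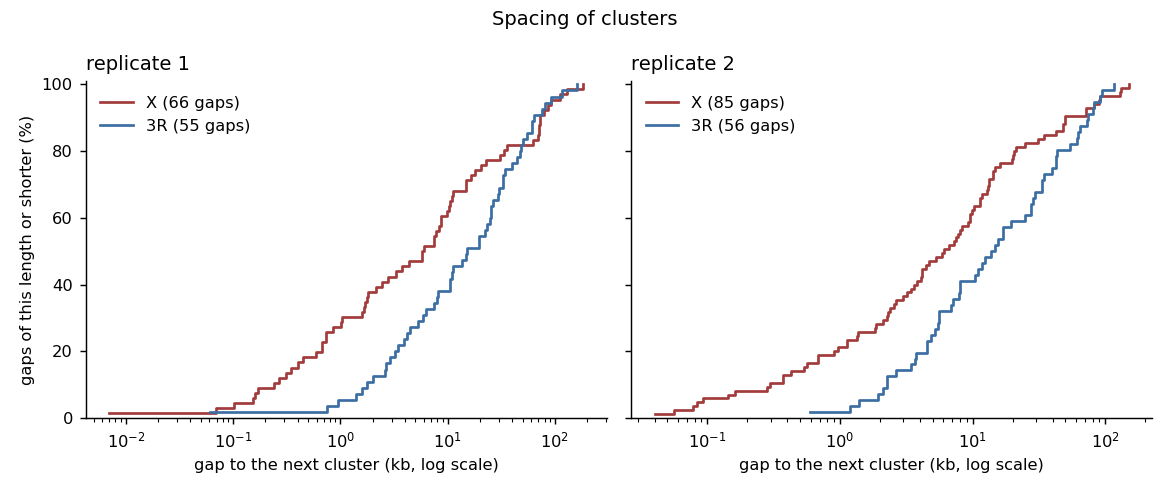
Share of gaps between neighbouring clusters that are at or under a given length (kb, log scale), for X and 3R in replicate 1 (left) and replicate 2 (right). The X line lies above the 3R line at 1 kb and at 20 kb in both replicates. At 50 kb the lines lie close together in replicate 1, and the X line lies above in replicate 2.

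The 2 longest empty stretches of the combined set on each arm lay towards the far border. On 3R they ran from 1674269 to 1851865 (178 kb) and from 1853155 to the border at 2000000 (147 kb), parted by a 1289 bp cluster that neither replicate had. The third, 877557 to 992877, was 115 kb long. On X they ran from 20677853 to 20802823 (125 kb), from the border at 20422828 to 20542377 (120 kb) and from 22129753 to 22230019 (100.3 kb). The last of these lay only 193 to 293 kb from the end of the X sequence. Replicate 2 had 176 bases of a cluster in the second X stretch, and all others were empty in both replicates. The replicates left a wider gap around the third X stretch. It was 184 kb in replicate 1, from 22103956 to 22287799, and 150 kb in replicate 2, from 22124758 to 22274819. In each replicate this was the longest gap between X clusters. On 3R the longest gap between clusters was 160 kb in replicate 1, from 310627 to 470436, and 115 kb in replicate 2.

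On X, length and score showed little monotonic relation to the distance over the 2 Mb. Across the 134 combined-set clusters, Spearman's rho with the distance was -0.15 for length and -0.08 for score, and in the replicates these values lay between -0.01 and 0.08. Across the 85 combined-set clusters of the proximal 1 Mb, rho was 0.31 for length and 0.47 for score. In that set longer and higher-scored clusters thus lay farther from the end. Values for the proximal 1 Mb were not computed in the replicates. On 3R, rho with the distance was -0.09 for length and -0.12 for score over 87 clusters, and -0.26 and -0.16 for length in replicates 1 and 2. For gaps rho was 0.18 on X and 0.22 on 3R in the combined set. In replicates 1 and 2 it was 0.045 and 0.13 on X and 0.16 and 0.10 on 3R. Within the proximal 1 Mb of X it was -0.17 in the combined set. Within the proximal 1 Mb of 3R the combined-set value for gaps was 0.57, and those for length and score were 0.09 and 0.11. All are descriptions across neighbouring clusters, without a test.

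At the far border, the clusters just inside the span were short and low in score. On X they were 20542378 to 20543502 (1125 bp, score 0.61) and 20562316 to 20564062 (1747 bp, score 0.51), and just outside lay 20381498 to 20383290 (1793 bp, score 0.31) and 20375100 to 20377140 (2041 bp, score 0.85). On 3R those inside were 1851866 to 1853154 (1289 bp, score 0.35) and 1672762 to 1674268 (1507 bp, score 0.19). Those outside, 2000610 to 2004832 (4223 bp, score 1.21) and 2005570 to 2008292 (2723 bp, score 1.45), were longer and scored higher, and each replicate covered at least 74.4% of both. The inside clusters had less support. Those at 20562316 on X and 1851866 on 3R had no base in either replicate. Those at 20542378 on X and 1672762 on 3R were covered in replicate 2 only. The 3R border thus falls between a thin stretch and a further group of clusters.

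The replicates drew largely the same map on both arms. They shared 244 kb of 370 kb covered in either on X (Jaccard index 0.66) and 136 kb of 208 kb on 3R (0.65). On X, 86.0% of the bases of replicate 1 lay in replicate 2 and 74.1% in the opposite direction. The shares on 3R were 79.3% and 78.9%. By number, 56 of 67 X clusters of replicate 1 met replicate 2, and 56 of 86 did so in the opposite direction. On 3R these counts were 44 of 56 and 43 of 57. Where exactly 1 cluster of each replicate met, their borders differed by a median of 179 bp over 80 borders on X and 167 bp over 78 on 3R. The mean scores of the replicates inside combined-set clusters that met both had Spearman's rho of 0.93 over 45 regions of X and 0.74 over 44 of 3R, across regions that share their libraries.

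The share of combined-set clusters that both replicates backed was 28.4% on X and 46.0% on 3R. At least 50% of a cluster was covered in both replicates for 38 of 134 clusters on X and for 40 of 87 on 3R, where the share over all 5583 clusters of the combined set was 40.0%. In the rest of the arms the shares were 26.8% on X and 29.1% on 3R. The X count depends on replicate 1. With replicate 2 alone 68 X clusters met this limit, and with replicate 1 alone 46 did. Clusters with no base in either replicate numbered 51 on X (38.1%) and 23 on 3R (26.4%), against 29.6% over the whole combined set. They were short, 47 of the 51 and all 23 being under 2 kb, and 25 and 14 fell short of 1301 bp, the length of the shortest cluster in either replicate list.

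Clusters held by both replicates had a higher median length and score than those found in neither. Their median length was 4865 bp on X and 3258 bp on 3R, against 1301 bp and 1277 bp for those in neither. Their median score was 1.46 on X and 0.69 on 3R, against 0.61 and 0.46. Over all 5583 clusters of the combined set the contrast went the same way. There the median length was 4841 bp against 1291 bp, and the median score 1.41 against 0.49. By bases, the clusters held by both made up 58.1% of the combined set on X and 64.3% on 3R, below the 76.2% of the whole combined set. Of the clusters of 5 kb or longer, 19 of 23 on X and 10 of 11 on 3R were held by both. A high score alone did not set the groups apart: 7 of 33 X clusters with a score of 1 or higher, and 2 of 14 on 3R, had no base in either replicate. Of these 7 on X, 6 lay 778 to 875 kb from the end, inside the dense interval. The shares among all combined-set clusters of such length or score were not computed, so these counts are not set against the series. Over all combined-set clusters, whatever their length or score, 40.0% were held by both replicates and 29.6% had no base in either.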

How the data were processed

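HP1a ChIP-seq of adult Oregon-R heads was used as 2 replicate lists and 1 combined list of enriched regions. Per the file headers, coordinates are on FlyBase r5, and Bowtie 0.12.7 is named per the submitters' processing notes. The sources used here do not give the caller, its threshold, the treatment of reads with several positions or the way of combining replicates. Each region was deposited by the authors with a score whose scale is not given. Depth per library is unknown, so no counting interval is given, and the input libraries were not analysed here.

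Regions named as enriched were taken, and clusters past the end of X (1 in replicate 2 and 1 in the combined set) were clipped. Lengths and coverage are after clipping, and membership used the deposited midpoint. A gap is the number of bases between a cluster and the next. The span was 2 Mb, with bins of 100 kb. Python 3.11.15, numpy 2.4.6 and pandas 2.3.3 were used, and the interval functions were tested on simulated data. Separate cages for the replicates are not stated in the labels, so the SD (n = 2) may be technical.

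The regions named were the 8 longest, the 5 highest-scored, the 2 nearest the end and the 2 on each side of the far border per arm, with the 3 longest empty stretches and the most covered bin. The spans, the measures and this rule were chosen with earlier results of these data known. Other regions in the text were chosen after their values were seen. Alternatives were clusters at or above the list's median score, a span of 1 Mb, merging clusters under 1000 bp apart, other overlap limits, other lists and each replicate alone.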

Additional observations from a re-analysis of the deposited data

How the results depend on the processing

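No paired analysis of ChIP against input was possible because only ChIP has lists of regions here. The arms were compared within each replicate. Values on coverage, length, score and gap are means over the replicates. When clusters below the median score of their list were dropped, which by construction keeps fewer clusters, coverage was 9.87% on X and 2.27% on 3R and its ratio 4.49. The clusters per replicate were then 33.5 and 10.5, the median length 4972 bp and 3793 bp, the median score 1.95 and 1.71, and the median gap 2044 bp and 152035 bp, and 20 and 9 combined-set clusters were held by both replicates. In the proximal 1 Mb, coverage was 25.2% on X and 10.2% on 3R and its ratio 2.47, with 31.5 clusters per replicate on 3R. In the combined set 23 of 50 clusters of 3R there were held by both replicates. The median length there was 2706 bp and 2485 bp, the median score 1.36 and 0.76, and the median gap 3717 bp and 13149 bp. Merging clusters under 1000 bp apart gave a median length of 2462 bp and 2431 bp, a median gap of 9960 bp and 17088 bp, and on 3R a coverage of 8.66% and a median score of 0.74. Without 500 to 1000 kb, chosen after seeing the data, coverage was 6.59% on X and 9.14% on 3R, and the ratio of 0.72 put X below 3R. That interval held the peak of X and not that of 3R, so a lower ratio was set by the choice. In place of 38 and 40 clusters held to 50%, 10 and 12 were held to 90%.

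Several of the rank correlations with distance changed sign between lists and spans, and none was tested. All values for the proximal 1 Mb are from the combined set. On X, length gave 0.081 in replicate 1, 0.062 in replicate 2, 0.060 over clusters held by both and 0.31 in the proximal 1 Mb. Score on X gave 0.064, -0.0056, -0.025 and 0.47. Gap on X gave 0.045 in replicate 1 and -0.17 in the proximal 1 Mb. On 3R, in the same order, length gave -0.26, -0.16, -0.27 and 0.089, score -0.19, -0.19, -0.28 and 0.11, and gap 0.16, 0.10, 0.18 and 0.57. Each replicate alone gave a ratio of 1.66 to 1.91, and 46 to 68 X clusters and 49 to 52 3R clusters held. Of all 94 alternative values, 36 stayed within 1 SD of the replicates or, for counts, within 1.5 times, and 58 moved further. By construction, each replicate alone lies within 1 SD of a mean over 2, so those values add no support. Depth is unknown, so a cluster missing in 1 replicate does not show that HP1a was absent.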

Other observations

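Many clusters of the 2 spans shared their exact score with other clusters of the same list (equal within 1e-09). In the combined set this held for 40 of 134 clusters on X and 17 of 87 on 3R, in replicate 1 for 16 of 67 and 11 of 56, and in replicate 2 for 33 of 86 and 14 of 57. The score of 3.68 of the 1001 bp cluster on 3R recurred in 14 clusters of the combined set. In replicate 1, a cluster on X at 21772885 to 21775084 and one on 3R at 1275057 to 1276368 had the same score of 3.06, which 6 clusters of that list shared.

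The combined set covered more of both spans than either replicate did: 24.1% of X against 14.2% and 16.5%, and 12.9% of 3R against 8.58% and 8.62%. The excess was uneven along X. In the first 500 kb the combined set covered 21.4% against 7.00% and 10.7%, while between 500 and 1000 kb it covered 53.1% against 40.1% and 43.1%.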
